A study of Rattus norvegicus with 10 samples.

Results

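S100a8, S100a9 and Sectm1b are 3 immune genes whose mRNAs were measured in the aortas of endotoxemic and control rats. They were taken by name from the study's list of its 20 leading mRNAs, which was chosen for the difference between the same animals, so the difference between LPS and control is described here and not tested. The paper also measured the mRNAs of its list by quantitative PCR, and its primers include a pair for each of these genes. It names S100a9 and Sectm1b among the mRNAs whose PCR result matched the array, and does not name S100a8. The PCR values were not used here, so the differences below are array values only. Each gene is followed by 1 named probe, and the array holds 28287 mRNA probes. Of these, 20 are paired with a gene name in the sources used here. The probes stand for the transcripts ENSRNOT00000015473 of S100a8 and ENSRNOT00000015351 of S100a9, both on chromosome 2, and ENSRNOT00000054932 of Sectm1b on chromosome 10.

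The LPS group comprised 5 male Wistar rats, 8 weeks old, that were injected intraperitoneally with lipopolysaccharide at 10 mg/kg, and the control group comprised 5 male Wistar rats of the same age that were injected with saline. LPS is the glycolipid of the outer membrane of Gram-negative bacteria and is sensed by Toll-like receptor 4. The aortas were frozen 24 h after the injection, and the labels call the tissue blood vessel. No genetic alteration is given for either group, and the sources do not say whether blood or perivascular fat was removed from the vessel. The labels give each single-colour array its own number, which is read here as the number of the rat, and the values are array intensities. They are given as log2 intensity relative to the 75th percentile of the intensities on the same array, so that 0 is the level of a fairly bright probe and each unit is a doubling.

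S100A8 and S100A9 are small calcium-binding proteins that pair to form calprotectin. Neutrophils and monocytes store calprotectin in large amounts, and once released it binds zinc and manganese, which bacteria need, and acts on Toll-like receptor 4 and the receptor RAGE. SECTM1 proteins are membrane-bound and secreted proteins with an immunoglobulin-like domain that bind CD7, a receptor of T and natural killer cells. In the RefSeq annotation of the rat assembly GRCr8, S100a8 lies between S100a7a and S100a9, and S100a9 lies between S100a8 and Pglyrp4, so the calprotectin genes are direct neighbours. Sectm1b lies between Cd7, the gene of the receptor, and Sectm1a.

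The 250 bases before the annotated start are shown for S100a9 and Sectm1b. The sources used here gave no such sequence for S100a8. S100a9 is shown because it varied with its neighbour S100a8 between rats of a group, and Sectm1b is set beside it. The window of S100a9 is chr2:178490623-178490872 on the minus strand of GRCr8, and that of Sectm1b is chr10:106832105-106832354 on the minus strand. Both read 5′ to 3′ towards the gene, and capitals mark matches to the motifs searched.
S100a9: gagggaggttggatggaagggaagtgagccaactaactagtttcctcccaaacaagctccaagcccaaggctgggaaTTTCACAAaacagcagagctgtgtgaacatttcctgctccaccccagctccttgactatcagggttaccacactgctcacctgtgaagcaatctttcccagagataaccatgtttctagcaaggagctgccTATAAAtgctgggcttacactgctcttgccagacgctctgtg
Sectm1b: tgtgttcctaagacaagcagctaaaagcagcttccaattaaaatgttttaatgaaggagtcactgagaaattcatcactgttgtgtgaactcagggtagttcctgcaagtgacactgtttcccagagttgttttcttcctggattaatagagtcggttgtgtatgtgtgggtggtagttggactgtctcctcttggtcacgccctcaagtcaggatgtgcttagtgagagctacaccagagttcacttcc
The search covered 8 motifs on both strands, and the share of 33469 windows of the same length that hold each was counted. TATAAA, the TATA box that positions a start of transcription, stood at positions -42 to -37 of S100a9 relative to its start and is held by 12.9% of the windows. TTNNGNAA, a spaced site of the C/EBP factors of myeloid cells, was found in S100a9 on the opposite strand at positions -173 to -166 (TTTCACAA as printed), and is held by 37.2%. The other motifs were TTGCNNAA (C/EBP, 9.22%), GGGA and TTCC with any 2 bases between them (NF-κB, 1.08%), TGANTCA (AP-1, 6.34%), TTCNNNGAA (STAT factors, 7.67%), GAAA repeated after any 2 bases (interferon regulatory factors, 3.41%) and GAGGAAGT (PU.1 and other ETS factors, 2.04%), and the window of S100a9 held none of them. The window of Sectm1b held none of the 8. These matches describe letters, and binding was not measured.

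All arrays were compared before they were averaged, by the median squared difference over spots well above background on every array. The arrays of LPS rats 1 and 3 differed by 0.984 times the squared spot error that the scanner software gives, and those of control rats 15 and 17 by 0.778 times, whereas the other 43 pairs of arrays differed by 4.01 to 13 times. Each of these pairs was therefore averaged and counted as 1 sample, which gave 4 LPS and 4 control samples. The means and SDs below are over these samples, although the labels give the arrays of each pair different numbers. The share of probes well above background was 86.3% to 92.3% on the LPS arrays and 79.6% to 92.6% on the control arrays, and no spot was saturated. The 4 arrays of slide 1 were all control arrays, slide 2 held LPS rats 1, 3 and 5 with control rat 20, and slide 3 held LPS rats 6 and 7.

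S100a8 was higher on every LPS array than on any control array. Its log2 relative intensity was 6.12, 6.23, 6.04, 4.98 and 5.67 in LPS rats 1, 3, 5, 6 and 7. In control rats 15, 16, 17, 18 and 20 it was 1.86, -0.94, 2.15, -0.24 and 0.32. LPS rat 6 was the lowest of its group, and control rats 15 and 17 stood well above the other controls. The LPS group averaged 5.72 ± 0.54 (SD, n = 4) and the control group 0.29 ± 1.25 (SD, n = 4), a difference of 5.43 on the log2 scale or 43.1-fold. The lowest LPS sample was 7.85-fold above the highest control sample. In unscaled intensity, the spot read 9297 to 31594 on LPS arrays and 99.5 to 1347 on control arrays.

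S100a9 showed the same pattern on a smaller scale. The log2 relative intensity in the LPS rats was 5.52, 5.44, 5.43, 4.51 and 5.46, in the same order of rats. The control rats gave 1.98, -0.50, 2.17, 0.14 and 0.66. Apart from LPS rat 6, the LPS samples lay within 5.43 and 5.48, and control rats 15 and 17 were again the highest controls. The group means were 5.22 ± 0.47 (SD, n = 4) for LPS and 0.59 ± 1.1 (SD, n = 4) for control, a difference of 4.63 on the log2 scale or 24.7-fold. Between the lowest LPS sample and the highest control sample the gap was 5.40-fold. The unscaled intensity was 6720 to 20832 in the LPS group and 134 to 1366 in the control group.

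Sectm1b differed between the groups by about as much as S100a8, and its controls were closer together. LPS rats 1, 3, 5, 6 and 7 had log2 relative intensities of 5.73, 5.5, 5.08, 6.44 and 6.37. Control rats 15, 16, 17, 18 and 20 had 1.0, -0.13, 1.07, -0.05 and 0.42. LPS rat 6, the lowest for the calprotectin genes, was the highest for Sectm1b, and LPS rat 5 was the lowest. The mean of the LPS samples was 5.88 ± 0.65 (SD, n = 4) and that of the controls 0.32 ± 0.53 (SD, n = 4), a difference of 5.56 on the log2 scale or 47.1-fold. The lowest LPS sample exceeded the highest control sample 16.5-fold. The unscaled spot intensity lay between 7559 and 30478 on LPS arrays and between 174 and 640 on control arrays.

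**Figure D1:**
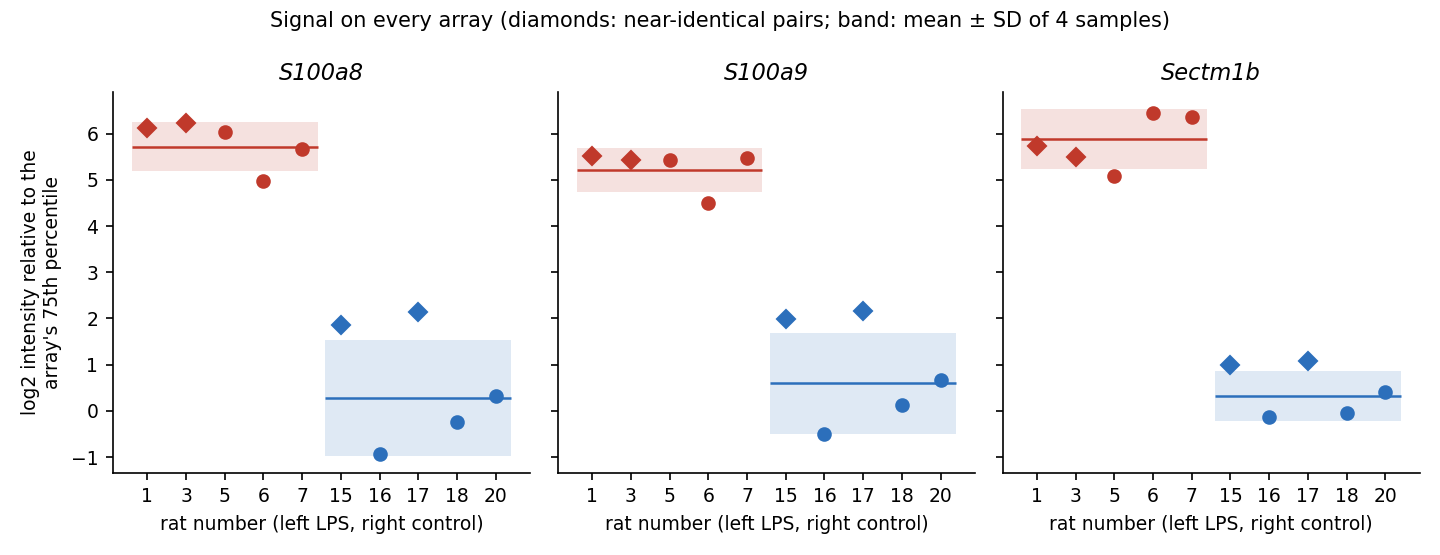
Log2 intensity relative to the 75th percentile of the array (vertical axis) for each rat (horizontal axis, LPS left in red, control right in blue). Diamonds are arrays of the near-identical pairs, lines are means and bands are SDs over 4 samples. All LPS arrays lie above all control arrays for the 3 genes, LPS rat 6 is lowest for S100a8 and S100a9 and highest for Sectm1b, and control rats 15 and 17 are the highest controls.

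The groups of all 3 genes did not overlap, where 4.33% of the 26240 mRNA probes tested, and 4.49% of mRNA and lncRNA probes together, had every LPS sample above every control sample. Over mRNA and lncRNA probes, limma called 0.632% of 33702 as higher in LPS (adjusted p below 0.05 and fold change above 1.5). The genes were chosen on this contrast, so nothing is read from these counts. By the size of the difference, Sectm1b ranked 10, S100a8 ranked 11 and S100a9 ranked 24 among the 26240 mRNA probes. All 30 spots of the 3 genes were well above background, and the software gave each an error of 10% to 10.1% of its signal. In bulk tissue, more cells of a type and more RNA per cell cannot be told apart.

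The differences depended on which samples were compared. Without control rats 15 and 17 the difference was 6.0 for S100a8 (64.1-fold), 5.12 for S100a9 (34.8-fold) and 5.80 for Sectm1b (55.5-fold), on the log2 scale. On slide 2 alone, the only slide with both groups, 2 LPS samples against control rat 20 gave 5.79, 4.79 and 4.93 in the same order of genes. For Sectm1b the latter was 30.5-fold against 47.1-fold over all samples. The LPS rats highest for Sectm1b, 6 and 7, were both on slide 3, which held no control array, so slide and rat cannot be told apart there.

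Among the controls, the calprotectin genes varied more than most mRNAs. From the lowest to the highest control sample S100a8 spanned 7.67-fold and S100a9 5.97-fold, whereas Sectm1b spanned 2.24-fold. In the control group the SD of S100a8 was above that of 95.7% of the 26240 mRNA probes, that of S100a9 above 93.3% and that of Sectm1b above 65.0% (the median probe had an SD of 0.42). The lowest control sample, rat 16, and the highest, rats 15 and 17, were on the same slide. This spread rested largely on the sample of rats 15 and 17, since without it the spans were 2.39-fold, 2.24-fold and 1.46-fold, and the SDs of the calprotectin genes of 0.63 and 0.58 were above those of 73.8% and 70.4% of the probes.

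In the LPS group the calprotectin genes spanned less than over all 4 control samples. The spans were 2.3-fold for S100a8, 1.96-fold for S100a9 and 2.57-fold for Sectm1b. With quantile normalisation S100a8 spanned 3.74-fold and S100a9 3.02-fold in LPS, which is above the 2.3-fold and 2.15-fold of the controls without rats 15 and 17 on that scale, and in the authors' values they spanned 3.61-fold and 2.96-fold. On the scale of the 75th percentile, the SDs were above those of 75.9%, 68.6% and 85.4% of the mRNA probes, with a median of 0.36. LPS rat 6 was the lowest for the calprotectin genes on this scale, with quantile normalisation, with normexp background correction and in the authors' values. Without it, the LPS samples spanned 1.42-fold for S100a8 and 1.04-fold for S100a9, but with quantile normalisation 2.73-fold and 1.86-fold, and in the authors' values 2.61-fold and 1.80-fold. How much of the spread in LPS rested on rat 6 thus depended on the scaling. Between the arrays of control rats 15 and 17, which differed by no more than the spot error over all probes, S100a8 differed by 0.29, S100a9 by 0.18 and Sectm1b by 0.07 on the log2 scale, and between those of LPS rats 1 and 3 the differences were 0.11, 0.083 and 0.23.

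**Figure D2:**
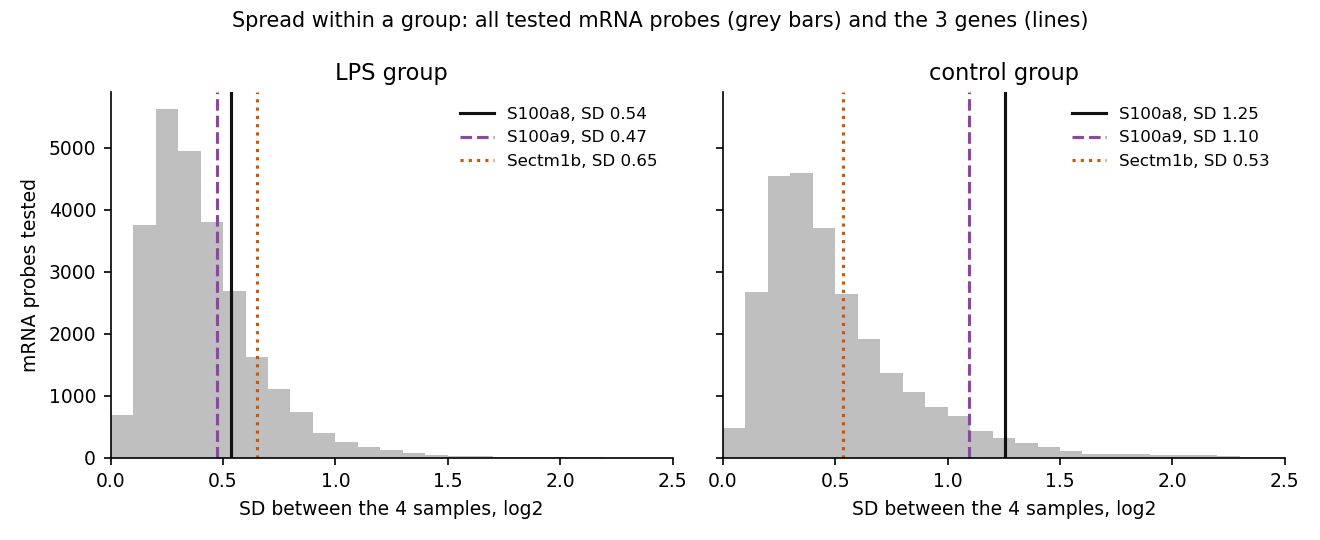
Number of tested mRNA probes (vertical axis) by the SD of their log2 relative intensity between the 4 samples of a group (horizontal axis), with a line for each gene. In the control group S100a8 (SD 1.25) and S100a9 (1.1) lie in the right tail and Sectm1b (0.53) near the bulk, while in the LPS group all 3 lie between 0.47 and 0.65.

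Within a group, S100a8 and S100a9 were high and low in the same rats. After the group mean was subtracted, S100a8 deviated by 0.46, 0.33, -0.74 and -0.04 in the LPS samples of rats 1 and 3, 5, 6 and 7. S100a9 deviated by 0.26, 0.21, -0.71 and 0.24 in these samples. In the control samples of rats 15 and 17, 16, 18 and 20, the deviations were 1.72, -1.22, -0.53 and 0.04 for S100a8 and 1.48, -1.10, -0.46 and 0.07 for S100a9. Only LPS rat 7 lay on opposite sides of the mean for these genes, by a small deviation of S100a8. The choice of genes did not use this order of rats, so the relation was tested. Pearson's r was 0.99 and Spearman's rho 0.93 over the 8 samples (exact two-sided permutation within groups, 576 relabellings, p = 0.00521 for r and p = 0.00694 for rho, and p = 0.0156 for r after Benjamini-Hochberg adjustment over the 3 pairs of genes).

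The relation of the calprotectin genes did not rest on the highest control alone. Without the sample of control rats 15 and 17, r was 0.96 (exact permutation, p = 0.0208, n = 7). Without this sample and control rat 16, the samples farthest from the median, r was 0.93 and no longer passed the test (exact permutation, p = 0.0625, n = 6, 48 relabellings). Without LPS rat 6, r was 0.99 (exact permutation, p = 0.0208, n = 7), but rho was 0.82 and did not pass (exact permutation, p = 0.0694). When each sample was set against the mean of its own group on its own slide, r was also 0.99 (rho 0.98, exact permutation within slide and group, p = 0.0417, the smallest that the 24 relabellings can give, and adjusted p = 0.125 over the 3 pairs of genes). In that comparison control rat 20, alone in its group on slide 2, adds nothing. With any 1 other sample left out r was 0.98 to 1.0, but none of these passed. The exact permutation gave p = 0.0833 without an LPS sample and p = 0.25 without a control sample of slide 1. The LPS samples of a slide mirror each other in these deviations, so the samples are not independent points.

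Over the whole LPS group, the order of Sectm1b differed from that of the calprotectin genes. Its deviations were -0.26 in LPS rats 1 and 3, -0.80 in rat 5, 0.56 in rat 6 and 0.49 in rat 7, against 0.72, -0.45, -0.37 and 0.10 in control rats 15 and 17, 16, 18 and 20. In the controls all 3 genes had the same order, rats 15 and 17 above 20, 18 and 16. In the LPS samples, rat 6 was the highest for Sectm1b and the lowest for the others. These statements on the controls and on rat 6 held under the 4 scalings tried. Both LPS samples of slide 3, rats 6 and 7, were above both of slide 2, rats 1 and 3 and rat 5, for Sectm1b. With quantile normalisation rat 7 was below rats 1 and 3, at 14.20 against 14.28, and in the authors' values at 14.20 against 14.23. On slide 2 all 3 genes were higher in rats 1 and 3 than in rat 5. Over the 8 samples, without regard to slide, r was 0.33 between Sectm1b and S100a8 (rho 0.24, exact permutation, p = 0.425, adjusted p = 0.425) and 0.40 between Sectm1b and S100a9 (rho 0.38, exact permutation, p = 0.300, adjusted p = 0.425). Without control rats 15 and 17 these were -0.31 and -0.15, and without LPS rat 6 they were 0.60 and 0.70 (exact permutation, p = 0.146 and p = 0.0139, n = 7). Set against the mean of the same group on the same slide, r was 0.89 between Sectm1b and S100a8 (rho 0.76, exact permutation, p = 0.0833, adjusted p = 0.125) and 0.84 between Sectm1b and S100a9 (rho 0.67, exact permutation, p = 0.167, adjusted p = 0.167). These values rested on control rats 15 and 17, since without them they were 0.14 and 0.013. Neither relation of Sectm1b passed the test in either form, slide and rat cannot be told apart in the LPS group, and the difference between these correlations and that of the calprotectin genes was not tested.

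**Figure D3:**
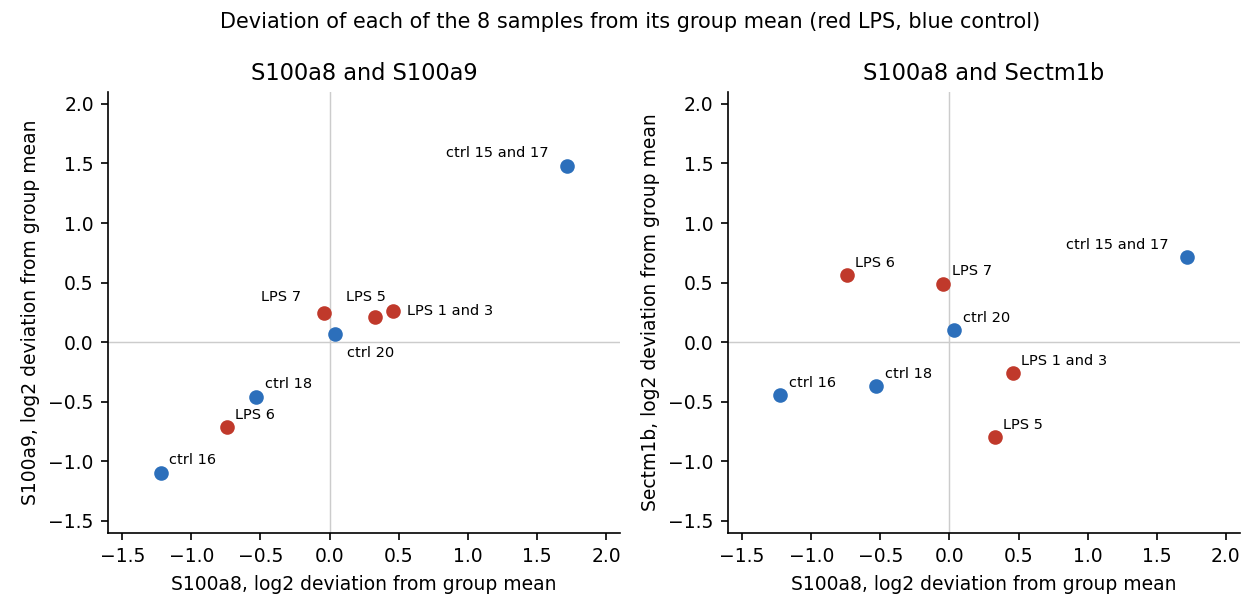
Deviation of each of the 8 samples from its group mean on the log2 scale, for S100a8 (horizontal axes) against S100a9 (left) and Sectm1b (right), with LPS in red and control in blue. The samples lie along a line for S100a9 (r 0.99) and do not for Sectm1b (r 0.33), where LPS rat 5 of slide 2 is above the mean for S100a8 and below it for Sectm1b, and LPS rat 6 of slide 3 is the reverse.

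The shared order of the controls was also that of a property of the arrays. The share of probes well above background was highest in control rats 15 and 17 (86.9% and 92.6%), followed by 20 (85.1%), 18 (83.4%) and 16 (79.6%). That order of the controls was the most frequent of the 24 possible and was held by 7.35% of the other mRNA probes. Over the 8 samples and within groups, the share correlated with S100a8 at r 0.87, with S100a9 at 0.89 and with Sectm1b at 0.59, which is a description because the same arrays give both values. Control rat 17 was above control rat 15 by 5.68 percentage points in this share and by 0.29 in S100a8, 0.18 in S100a9 and 0.07 in Sectm1b on the log2 scale. In the LPS group the share was 92.3% and 90.6% in rats 1 and 3, whose average was the highest for S100a8 and S100a9. For S100a9, rat 7 at 5.46 lay between their arrays at 5.52 and 5.44. The share was 90.1% in rat 7 and 86.8% in rat 6, which was lowest for both genes. It was 86.3% in rat 5, which was next to rats 1 and 3 for S100a8. With quantile normalisation, which gives the arrays a common distribution, r between S100a8 and S100a9 was 0.99. The controls kept the same order on that scale, and the relation with the share was not computed there. The part of array quality in the spread of the controls and in the correlation of the calprotectin genes was not tested.

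**Figure D4:**
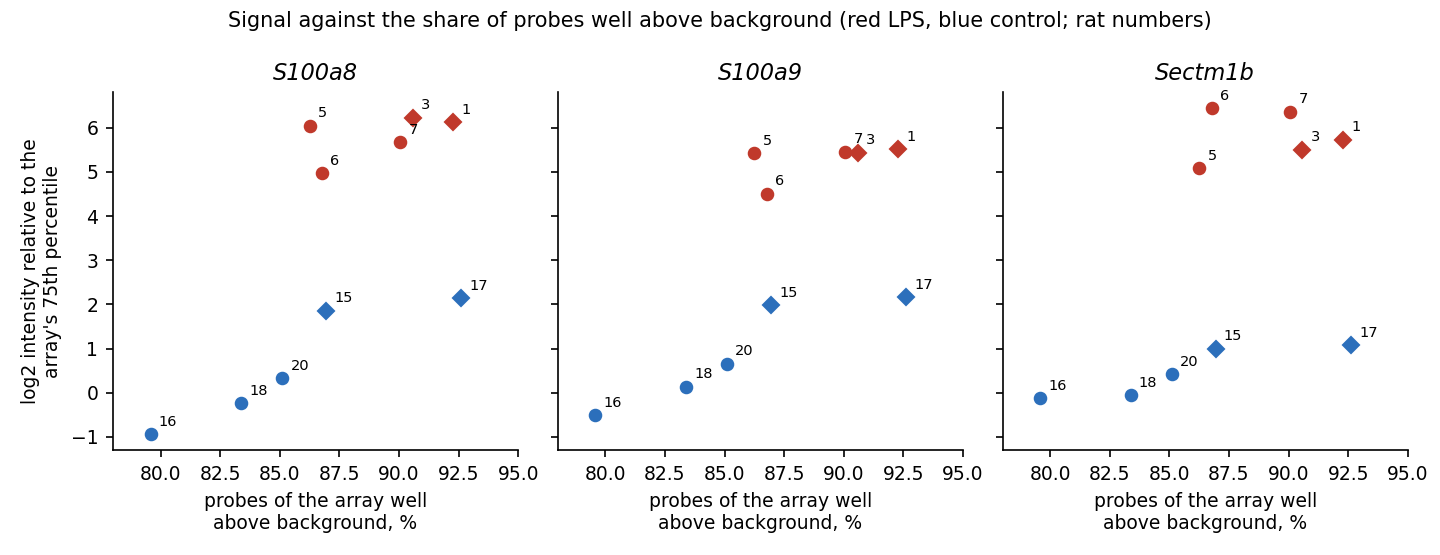
Log2 relative intensity of each gene (vertical axis) against the percentage of probes of the array well above background (horizontal axis), labelled by rat, with LPS in red and control in blue. Among the controls the signal is higher where the share is higher, from rat 16 at 79.6% to rat 15, and control rat 17 is above rat 15 by 5.68 percentage points in the share and by 0.29 or less in the signal.

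The mRNA probes most like each gene were found by the within-group r over the 8 samples, without regard to slide. S100a8 was the probe most like S100a9 among 26233 other mRNA probes, and S100a9 was the third most like S100a8. The first for S100a8 was ASRN6AP1B100074828V3, a probe without a gene name here, with r 0.997 and a difference of -0.52 between LPS and control. This probe was dim, with means of -5.49 in LPS and -4.97 in control samples, and was well above background on only 7 arrays. At r of at least 0.9, 98 probes were like S100a8, 62 were like S100a9 and 148 were like Sectm1b. The lists of S100a8 and S100a9 shared 55 probes, which is 56.1% of the first and 88.7% of the second. The r of Sectm1b with the calprotectin genes is too low for a probe to reach 0.9 with both, so its list could share none with theirs. The first in the list of Sectm1b was the unnamed ASRN6AP1B100073817V3, with r 0.99 and a difference of 0.45.

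The probes that varied between rats like these genes were also compared between the groups. Of the 98 probes like S100a8, 5 (5.10%) had all LPS samples above all controls. The numbers were 4 of 62 (6.45%) for S100a9 and 3 of 148 (2.03%) for Sectm1b, against 4.33% of all mRNA probes tested. The list of S100a8 included S100a9, and that of S100a9 included S100a8. Both genes were chosen for their difference between the groups, so part of the counts for S100a8 and S100a9 was fixed by that choice. Nothing is read from these counts. The median difference was 0.13, 0.13 and 0.29 on the log2 scale, against 0.07 for all mRNA probes. The mean was higher in LPS for 62.2%, 59.7% and 85.1% of these probes, against 58.0% of all.

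Among the other 17 named mRNAs, Lcn2 and Lrrc52 had the highest r with S100a8 among those higher and those lower in LPS. Lcn2 encodes lipocalin 2, a neutrophil granule protein that binds bacterial siderophores and is also made by other cells in inflammation. It was 7.87, 8.13, 7.63 and 7.33 in LPS rats 1 and 3, 5, 6 and 7, and 2.71, 1.68, 1.86 and 2.47 in control rats 15 and 17, 16, 18 and 20. Its controls had the order of S100a8, which was the most frequent order among the mRNA probes. In LPS it was highest in rat 5 and lowest in rat 7, whereas S100a8 was highest in rats 1 and 3 and lowest in rat 6. The within-group r of Lcn2 was 0.81 with S100a8, 0.74 with S100a9 and 0.09 with Sectm1b. Lrrc52, a leucine-rich repeat protein, was lower in LPS by a log2 difference of -4.18, yet had r 0.90 with S100a8, 0.93 with S100a9 and 0.40 with Sectm1b. For the remaining mRNAs higher in LPS, r with S100a8 went down to -0.60 for C3, the central complement component, which had -0.57 with S100a9 and -0.59 with Sectm1b. The largest r of Sectm1b with any of the 17 was 0.42, for Ucp1, the uncoupling protein of brown fat.

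Other genes of these pathways could be followed only where a probe has a name. Of 14 gene lists written for this tissue, 6 held a named gene. The S100 family list held 2 of 17, S100a8 and S100a9. The list of the SECTM1 receptor, its relatives and the interferon-gamma response held 1 of 19, Sectm1b itself. The neutrophil marker list held 3 of 19, S100a8, S100a9 and Lcn2, so that it adds only Lcn2 to the genes described. The lists of metal-binding and antimicrobial proteins (Lcn2, 1 of 17) and of neutrophil chemoattractants (Cxcl1, 1 of 22) held 1 each. Cxcl1 had a log2 difference of 6.67 and r -0.14 with S100a8, -0.06 with S100a9 and -0.08 with Sectm1b.

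The cell source of the 3 mRNAs was not tested. No named probe belonged to the lists of S100A8/A9 receptors and signal transduction (29 genes), monocytes and macrophages (18), T and NK cells (14), B cells (8), erythrocytes and platelets (11), vascular smooth muscle (11), endothelium (11) or fibroblasts (9). The tissue label could therefore not be checked against markers of the aortic wall. Of the adipocyte list, 2 of 9 genes were named, and both were well above background on every array and lower in LPS. Ucp1 was 5.64 ± 0.65 (SD, n = 4) in LPS and 8.91 ± 0.68 (SD, n = 4) in control samples, and its r with S100a8 was -0.07 and with S100a9 0.01. Cox8b was 3.49 ± 1.27 (SD, n = 4) in LPS and 6.11 ± 1.1 (SD, n = 4) in control samples, with r 0.34 with S100a8, 0.44 with S100a9 and 0.07 with Sectm1b.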

How the data were processed

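Aortic RNA of 5 LPS and 5 control rats was measured on 10 Agilent single-colour arrays, each labelled with its own number. The authors deposited scanner files with an intensity per spot, background-corrected by Feature Extraction 11.0.1.1 and not normalised between arrays, flags for spots, and a table of log2 values whose normalisation is not given in the sources used here. Labels gave groups and numbers, which were read as rat numbers, and slides were told apart by scan times.

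Control and outlier spots were left out, log2 intensity was taken, the 75th percentile of the array was subtracted, and spots of a probe were averaged. Arrays at or under 1 times the squared spot error were treated as 1 sample. A probe entered limma if 5 or more arrays had it well above background (limma 3.58.1, R 4.3.3), and Benjamini-Hochberg adjustment covered mRNA and lncRNA probes. The limma step was tested on simulated data. Correlations used exact permutation within groups, and within slide and group (SciPy 1.17.1).

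Named genes were the 3 genes, other mRNAs of the study's list where a result turned on them, the 5 probes most like each gene (the first printed) and listed genes with a name. Genes and lists were chosen with earlier results of these data known. Of 48 catalogue probes with an accession, 30 matched a RefSeq symbol, none in the lists. Alternatives were quantile normalisation, normexp (offset 50, on median signals, as mean signals were not used here), the authors' log2 values, other filters, the methods' t-test, the slide as a block, 10 separate arrays and samples left out.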

Additional observations from a re-analysis of the deposited data

Results flagged for a closer look

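S100a9 in LPS rat 6 lay apart from the other LPS samples. It was 4.51 on the log2 relative scale, against 5.43 to 5.48 in the other 3 samples, and its gap to the nearest was 0.948 of the whole range of the group, above Dixon's 95% critical value of 0.829 for 4 samples, on the scale of the 75th percentile only. The gap was 0.791 of the range with normexp background correction, 0.440 with quantile normalisation and 0.457 in the authors' values, all below the limit. The value for S100a8 in the same rat was 0.582, below that limit. The extremes of 3 genes in the 2 groups were compared in this way, and chance alone exceeds the limit in about 5% of such groups. Its cause was not tested.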

How the results depend on the processing

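The number of samples and the near-complete overlap of slide and group limit every value. The differences of S100a8, S100a9 and Sectm1b kept their direction under quantile normalisation, normexp, the authors' values, 10 separate arrays, the slide as a block and every left-out array. Leaving out each array in turn gave 5.02 to 5.68 for S100a8, 4.26 to 4.87 for S100a9 and 5.37 to 5.82 for Sectm1b. The difference of Sectm1b was 4.93 with the slide as a block and within slide 2, where only slide 2 holds both groups. With each sample left out, the SD in the LPS group was 0.26 to 0.66 for S100a8, 0.026 to 0.56 for S100a9 and 0.46 to 0.77 for Sectm1b, and in the control group 0.63 to 1.54, 0.58 to 1.34 and 0.29 to 0.65. The lowest of these came without LPS rat 6 for the calprotectin genes in LPS, and without control rats 15 and 17 for all 3 genes in the controls. Quantile normalisation raised the SD of S100a8 in LPS from 0.54 to 0.82, and the cause was not tested. Pearson's r of S100a8 and S100a9 was 0.980 to 0.999 with each array left out, and 0.93 without the 2 samples farthest from the median (exact permutation, p = 0.0625). Their rho was 0.82 without LPS rat 6 and 0.71 without those 2 samples. It passed in neither case (exact permutation, p = 0.0694 and p = 0.146). With deviations taken within slide and group, r was 0.89 in place of 0.33 for Sectm1b and S100a8 and 0.84 in place of 0.40 for Sectm1b and S100a9. The settings that leave out both arrays of a near-identical pair, the left-out samples for the spread, the scalings for spans, orders and the outlying sample, and all alternatives for the correlation were chosen after seeing the data.

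Over all mRNA and lncRNA probes, limma called 233 (213 higher and 20 lower in LPS). The count was 670 (559 higher, 111 lower) with 10 separate arrays, 6 (3 higher, 3 lower) with the slide as a block, 2187 (1622 higher, 565 lower) with the methods' t-test unadjusted and 48 (47 higher, 1 lower) after Benjamini-Hochberg adjustment. With each array left out it was 105 to 311, and was 134 without LPS rat 5, 110 without rat 6 and 105 without rat 7. No paired analysis was possible because the groups share no replicate numbers.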
